A study of Mus musculus with 7 samples.

Results

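The 10 genes described here encode proteins of the neutrophil, the most abundant phagocyte of the blood: the granule proteins Mpo, Elane, Prtn3, Ltf and Camp, the alarmin subunits S100a8 and S100a9, and Ly6g, Retnlg and Csf3r. They were taken by symbol from a deposited table of 22173 genes, and all 10 were found in it. Messenger RNA had been sequenced from whole mouse spleens. In the sHA-X group, 4 libraries came from spleens that had received 4 injections of a biomaterial named sHA-X, meant to prepare the organ for transplanted liver cells. In the PBS group, 3 libraries came from spleens given phosphate-buffered saline. Spleens of both groups then received hepatocytes, the metabolic cells of the liver, and were removed 30 days later. Strain, age, sex, the number of saline injections and the source of the hepatocytes are not stated in the labels. The labels also do not say that each library is a separate animal, so p-values measure the spread between libraries, which may in part be technical. The comparison of sHA-X with PBS asks how neutrophil genes stood in the remodelled spleen.

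Neutrophils are made from bone marrow progenitors, and in mice the spleen is a further site of blood formation. Their granule proteins are made in a fixed order. Myeloperoxidase (Mpo) and the serine proteases neutrophil elastase (Elane) and proteinase 3 (Prtn3) are transcribed in promyelocytes and packed into azurophil granules, and their messages are low in mature cells. Lactoferrin (Ltf) and cathelicidin (Camp) follow at the myelocyte stage and fill the specific granules, while S100a8, S100a9, Retnlg, Ly6g and the receptor gene Csf3r are associated with later stages, though Csf3r is already expressed in progenitors. The transcription factors PU.1, C/EBP and, in immature cells, MYB are known to drive this programme.

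The windows of 250 bases before the annotated start of the early granule genes and of Csf3r are shown, because these are the genes on which the comparison turns. They are RefSeq sequences of the build GRCm38.p6, all from the plus strand and written 5′ to 3′. Capitals mark GAGGAAG (a PU.1-type ETS core), ATTGC (a C/EBP core) or AACGG (the MYB core), each on either strand, so that GCAAT is ATTGC read on the other strand. The windows lie at chr11:87793534-87793783 for Mpo, chr10:79886062-79886311 for Elane, chr10:79879417-79879666 for Prtn3 and chr4:126024409-126024658 for Csf3r. The Csf3r window lies inside the span that RefSeq gives the gene.
Mpo: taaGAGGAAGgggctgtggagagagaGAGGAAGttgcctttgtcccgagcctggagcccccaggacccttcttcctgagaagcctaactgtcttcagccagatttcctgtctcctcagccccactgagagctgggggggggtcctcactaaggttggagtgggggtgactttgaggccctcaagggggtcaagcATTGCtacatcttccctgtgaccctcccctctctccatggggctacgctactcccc
Elane: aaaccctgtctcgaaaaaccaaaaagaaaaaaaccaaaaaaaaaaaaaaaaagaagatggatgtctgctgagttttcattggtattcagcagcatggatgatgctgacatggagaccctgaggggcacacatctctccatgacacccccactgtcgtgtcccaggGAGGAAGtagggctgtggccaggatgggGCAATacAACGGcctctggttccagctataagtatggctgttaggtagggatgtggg
Prtn3: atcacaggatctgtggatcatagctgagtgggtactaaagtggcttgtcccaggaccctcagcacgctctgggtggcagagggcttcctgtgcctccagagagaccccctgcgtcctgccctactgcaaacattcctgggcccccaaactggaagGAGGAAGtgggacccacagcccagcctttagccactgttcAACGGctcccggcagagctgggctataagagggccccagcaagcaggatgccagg
Csf3r: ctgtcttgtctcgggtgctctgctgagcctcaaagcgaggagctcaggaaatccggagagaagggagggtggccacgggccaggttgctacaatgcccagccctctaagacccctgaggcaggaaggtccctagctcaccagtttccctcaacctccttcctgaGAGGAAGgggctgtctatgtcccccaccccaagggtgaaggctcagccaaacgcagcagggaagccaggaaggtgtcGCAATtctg
Elane and Prtn3 shared a layout, with GAGGAAG beginning at -85 in Elane and -95 in Prtn3 and AACGG at -50 in Elane and -55 in Prtn3, counted from -1 at the last base before the start. Mpo held GAGGAAG further out, beginning at -247 and -224, and held no AACGG. Promoter windows were found for all 10 genes, 11 windows in all since Ly6g had 2. GAGGAAG was present for 6 of the 10 genes and in 10.7% of the 32536 distinct mouse windows of the same length. ATTGC was present for 8 of the 10 genes and in 22.8% of all windows. AACGG was present for 2 of the 10, Elane and Prtn3, and in 14.4% of all windows. No match overlapped another. The 3 motifs were picked after the windows had been read, so these counts describe the windows and test nothing.

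The deposited values were FPKM, sequenced fragments adjusted to gene length and library size. Whole reads could be worked back from them and came to between 29543963 and 37141978 per library. PBS replicate 2 held pancreatic acinar messages (587 FPKM summed over 6 genes, against 35.1 FPKM or less in each of the other libraries), and sHA-X replicate 2 held skeletal muscle messages (174 FPKM over 6 genes, against 10.04 FPKM or less in the others). Calls of named genes that are lost when both are left out are given with the gene. Markers of the labelled tissue were present, with 12 of 12 spleen lymphocyte and stroma genes above the test's filter. Changes are differences of log2(FPKM + 1), sHA-X minus PBS, tested with limma and adjusted over the 11920 genes with a mean of at least 1 FPKM. Since 1 FPKM was added, they understate the change of genes with low levels. In a whole spleen, changes in neutrophil number, in message per neutrophil and in other cells that express a gene cannot be told apart.

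Among the 10 neutrophil genes, Csf3r alone passed the test, at 1.98 times the PBS level, and 9 did not pass. The share called higher was 9.30% of all genes tested, against 1 of the 10 neutrophil genes, so the count of calls was near the background. None of the 10 was called lower by limma or by limma-voom on the recovered reads, against 5.03% of all genes called lower by limma. None was lower at an unadjusted p under 0.05 by limma either, against 11.5% of all genes tested. At an unadjusted p under 0.05 there were 5 genes, all with higher means in sHA-X: Mpo, Prtn3, S100a8, S100a9 and Csf3r. At that threshold 18.3% of all genes tested were higher. The change was positive for 8 genes and slightly negative for Ly6g and Retnlg. All sHA-X libraries lay above all PBS libraries for 4 genes, Prtn3, S100a8, S100a9 and Csf3r, while 17.2% of all genes tested did so. The median log2 change was 0.56 over the 3 early genes, 0.45 over the 7 late ones and 0.03 over all genes tested. Without PBS replicate 3 it was 0.30 over the early and 0.11 over the late genes, and without sHA-X replicate 2 it was 0.28 over the late genes.

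**Figure D1:**
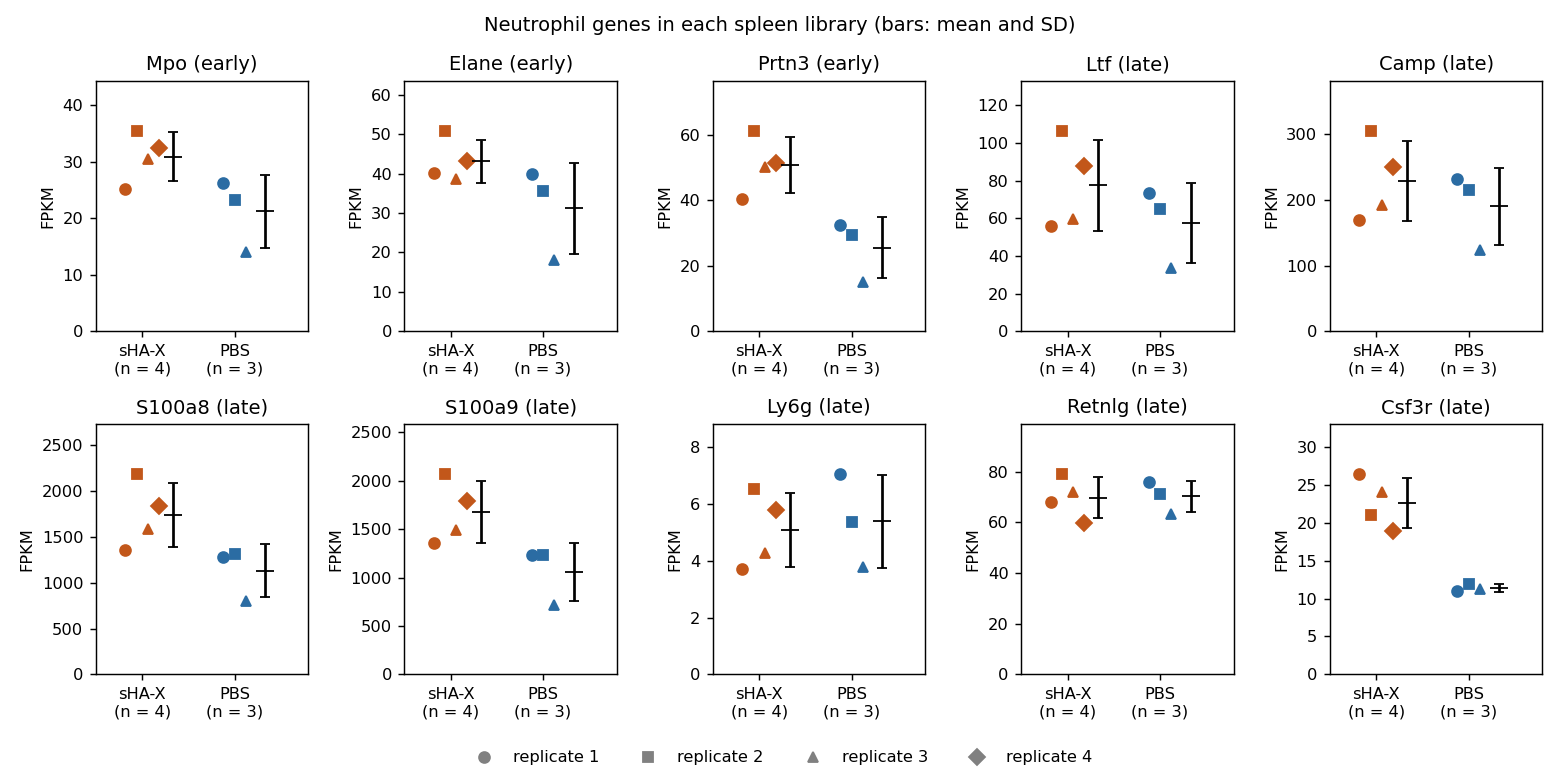
FPKM of the 10 neutrophil genes in each library, sHA-X (n = 4) left and PBS (n = 3) right, with the group mean and SD as bars, the replicate number as the symbol, and each axis starting at 0. Csf3r is tight in PBS (10.99 to 11.9 FPKM) and higher in every sHA-X library (18.9 to 26.4 FPKM), whereas PBS replicate 3 is the lowest library for 7 of the genes.

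Of the early azurophil genes, Prtn3 stood apart from Elane and Mpo in the size of its difference. Proteinase 3 is a serine protease of neutrophils and monocytes. Prtn3 had 40.4, 61.1, 50.0 and 51.3 FPKM in sHA-X (replicates 1 to 4, in that order, as in all such lists), against 32.3, 29.3 and 15.0 FPKM in PBS (replicates 1 to 3). The groups did not overlap, and the lowest PBS library lay far below the other two. The means were 50.7 ± 8.44 FPKM in sHA-X (SD, n = 4) and 25.5 ± 9.21 FPKM in PBS (SD, n = 3), a ratio of 1.99. The log2 change was 1.02 (SE 0.28, 95% interval 0.33 to 1.70), with an adjusted p of 0.064 that missed the threshold of 0.05. Without PBS replicate 3 the change was smaller, 0.69, but the spread was smaller too and the adjusted p was 0.023. Without limma's robust variance the adjusted p was 0.038. Under the other 14 alternative settings Prtn3 missed the threshold, with adjusted p between 0.054 and 0.24.

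Myeloperoxidase makes hypochlorous acid from hydrogen peroxide. Mpo had 25.2, 35.4, 30.4 and 32.5 FPKM in sHA-X, against 26.3, 23.3 and 14.0 FPKM in PBS. sHA-X replicate 1 lay below PBS replicate 1, so the groups overlapped, and PBS replicate 3 was at 0.564 of the mean of the other PBS libraries. The means were 30.9 ± 4.32 FPKM in sHA-X (SD, n = 4) and 21.2 ± 6.42 FPKM in PBS (SD, n = 3). The log2 change of 0.56 (SE 0.22, 95% interval 0.03 to 1.09) did not pass the test (adjusted p = 0.15), and it was 0.30 without PBS replicate 3.

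Neutrophil elastase, a serine protease that degrades matrix and bacterial proteins, gave the weakest difference of the early genes. Elane had 40.1, 50.8, 38.5 and 43.1 FPKM in sHA-X, against 40.0, 35.6 and 18.1 FPKM in PBS. The groups overlapped, with 3 sHA-X libraries above all PBS libraries and sHA-X replicate 3 within the PBS range. The means were 43.2 ± 5.45 FPKM in sHA-X (SD, n = 4) and 31.2 ± 11.6 FPKM in PBS (SD, n = 3). The log2 change was 0.52 (SE 0.27, 95% interval -0.14 to 1.19, adjusted p = 0.27), and 0.18 without PBS replicate 3.

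Ratios within a library compare early genes with each other and leave its total out. Prtn3 and Elane are neighbours on mouse chromosome 10, 3137 bases apart in RefSeq. Prtn3 over Elane was 1.01, 1.20, 1.30 and 1.19 in sHA-X, against 0.807, 0.823 and 0.8295 in PBS. Every sHA-X library held more Prtn3 than Elane by FPKM and every PBS library held less, including PBS replicate 3, where both genes were low. Prtn3 over Mpo was 1.60, 1.72, 1.64 and 1.58 in sHA-X, against 1.23, 1.26 and 1.07 in PBS, again without overlap. Elane over Mpo overlapped between the groups, at 1.27 to 1.59 in sHA-X and 1.29 to 1.53 in PBS. Separation was not confined to these pairs. Prtn3 over Ltf was 0.575 to 0.842 in sHA-X and 0.438 to 0.450 in PBS. Mpo over Camp was 0.116 to 0.158 in sHA-X and 0.108 to 0.114 in PBS. Camp over Ly6g did not overlap either, while Mpo over Ltf, Ltf over Camp and Retnlg over Ly6g did. All these ratios were looked at after the levels had been seen, carry no test and have no background share beside them. Prtn3 overlaps Plppr3 on the opposite strand, and the strand setting of the kit is not stated in the labels, so their reads may be shared. Plppr3 itself was at 0.694 to 0.791 FPKM in sHA-X and 0.480 to 0.686 FPKM in PBS. Mpo overlaps the antisense gene Gm11505, which is not in the table.

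**Figure D2:**
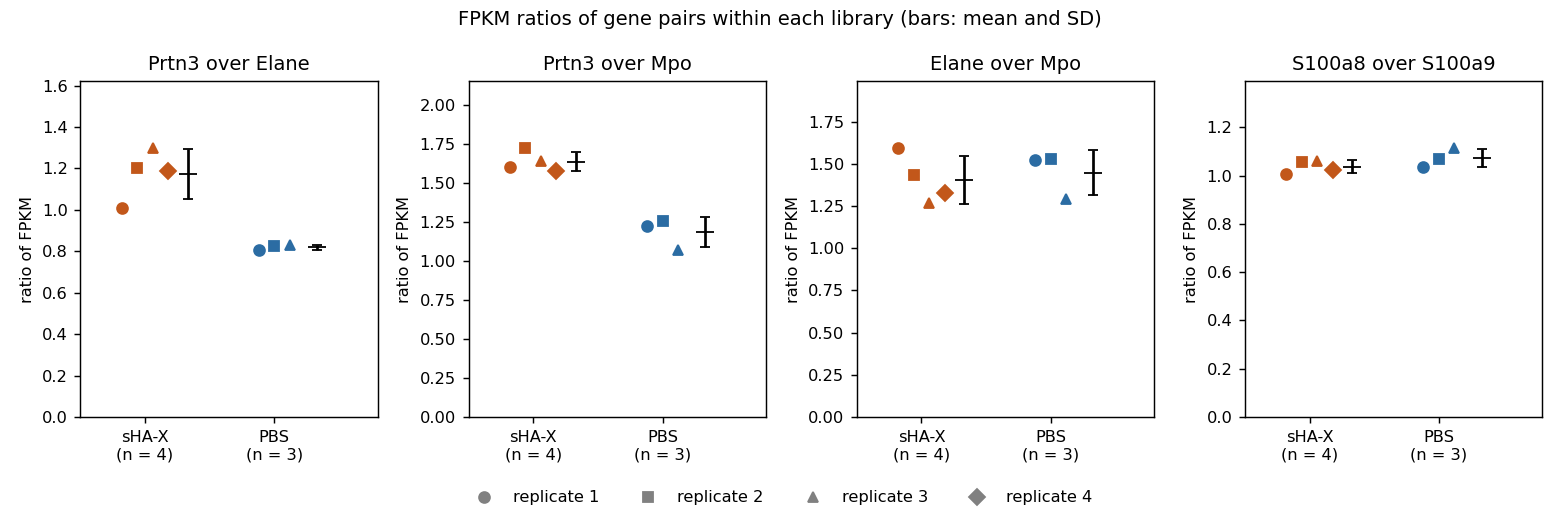
Ratio of the FPKM of 2 genes within each library for 4 gene pairs, sHA-X (n = 4) left and PBS (n = 3) right, with mean and SD as bars and each axis starting at 0. Prtn3 over Elane and Prtn3 over Mpo separate the groups, whereas Elane over Mpo and S100a8 over S100a9 overlap.

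The specific granule genes varied more within groups than between them. Lactoferrin withholds iron from microbes. Ltf had 56.1, 106, 59.4 and 87.9 FPKM in sHA-X, against 73.6, 65.1 and 33.4 FPKM in PBS. sHA-X replicates 1 and 3 lay within the PBS range and replicates 2 and 4 above it. The means were 77.4 ± 24.0 FPKM in sHA-X (SD, n = 4) and 57.4 ± 21.2 FPKM in PBS (SD, n = 3), with a log2 change of 0.45 (SE 0.36, 95% interval -0.43 to 1.34, adjusted p = 0.46). Cathelicidin is the precursor of an antimicrobial peptide. Camp had 169, 305, 193 and 251 FPKM in sHA-X, against 232, 215 and 124 FPKM in PBS, and the same sHA-X replicates, 2 and 4, lay above the PBS range. Its means were 229 ± 61.1 FPKM in sHA-X (SD, n = 4) and 190.3 ± 58.2 FPKM in PBS (SD, n = 3), a log2 change of 0.28 (SE 0.30, 95% interval -0.44 to 1.004, adjusted p = 0.59). Without PBS replicate 3 the Camp change was 0.00 and that of Ltf 0.11, without sHA-X replicate 2 they were 0.13 and 0.28, and without PBS replicate 1 that of Camp was 0.45. Ltf over Camp lay between 0.270 and 0.350 in all 7 libraries.

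S100a8 and S100a9 had the highest levels of the set and tracked each other closely. They encode the subunits of calprotectin, a cytosolic protein that binds calcium and zinc and acts as an alarmin once released. S100a8 had 1361, 2183, 1581 and 1834 FPKM in sHA-X, against 1281, 1312 and 796 FPKM in PBS. All sHA-X libraries lay above all PBS libraries, by a narrow margin in sHA-X replicate 1. The means were 1739.9 ± 353 FPKM in sHA-X (SD, n = 4) and 1129 ± 289 FPKM in PBS (SD, n = 3), a ratio of 1.54. The log2 change of 0.64 (SE 0.23, 95% interval 0.09 to 1.18) had an adjusted p of 0.12. S100a9 had 1354, 2066, 1489.8 and 1793 FPKM in sHA-X, against 1234, 1229 and 715 FPKM in PBS. Again the groups did not overlap, and sHA-X replicate 1 came nearest to PBS. The means were 1676 ± 318 FPKM in sHA-X (SD, n = 4) and 1059 ± 299 FPKM in PBS (SD, n = 3), with a log2 change of 0.69 (SE 0.24, 95% interval 0.12 to 1.26, adjusted p = 0.11). The genes lie 22595 bases apart on chromosome 3, and S100a8 over S100a9 stayed between 1.01 and 1.11 in all libraries. Without PBS replicate 3 the changes were 0.40 for S100a8 and 0.42 for S100a9. Over 16 other settings the adjusted p lay between 0.093 and 0.23 for S100a8 and between 0.084 and 0.22 for S100a9.

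Ly6g and Retnlg did not differ detectably, and their intervals bound the change. Ly6g is the surface antigen by which mouse neutrophils are usually identified. Ly6g had 3.71, 6.52, 4.28 and 5.79 FPKM in sHA-X, against 7.04, 5.35 and 3.77 FPKM in PBS. The ranges overlapped almost entirely, and the highest library was a PBS one. The means were 5.08 ± 1.30 FPKM in sHA-X (SD, n = 4) and 5.39 ± 1.64 FPKM in PBS (SD, n = 3), with a log2 change of -0.06 (SE 0.22, 95% interval -0.59 to 0.46, adjusted p = 0.88). Between 111 and 212 recovered reads stood behind each Ly6g value, which at the fewest reads gives a counting error of 9.49%, below the spread between libraries. Retnlg, a secreted resistin-like protein of mouse neutrophils, had 68.0, 79.0, 72.1 and 59.6 FPKM in sHA-X, against 75.9, 71.2 and 63.5 FPKM in PBS. The groups overlapped and both were tight. The means were 69.7 ± 8.09 FPKM in sHA-X (SD, n = 4) and 70.2 ± 6.29 FPKM in PBS (SD, n = 3), with a log2 change of -0.01 (SE 0.10, 95% interval -0.25 to 0.22, adjusted p = 0.95). The sign of both small changes turned when a single library was left out, for Ly6g to 0.05 without sHA-X replicate 1 and 0.12 without PBS replicate 1, for Retnlg to 0.06 without sHA-X replicate 4 and 0.04 without PBS replicate 1.

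Csf3r, which encodes the receptor for granulocyte colony-stimulating factor (G-CSF), the main growth factor of the neutrophil line, was the gene that passed. Csf3r had 26.4, 21.1, 24.1 and 18.9 FPKM in sHA-X, against 10.99, 11.9 and 11.3 FPKM in PBS. The groups were far apart, and PBS replicate 3 was not low. The means were 22.6 ± 3.29 FPKM in sHA-X (SD, n = 4) and 11.4 ± 0.474 FPKM in PBS (SD, n = 3), with a log2 change of 0.92 (SE 0.11, 95% interval 0.68 to 1.16, adjusted p = 0.0015). It passed under all 16 other settings, with adjusted p between 0.0012 and 0.020. Csf3r over Ly6g was 7.10, 3.23, 5.63 and 3.27 in sHA-X, against 1.56, 2.23 and 3.00 in PBS, without overlap but by a narrow margin. Csf3r over S100a8 did overlap, at 0.0194, 0.00964, 0.0152 and 0.0103 in sHA-X, against 0.00858, 0.00909 and 0.0142 in PBS. Its ligand Csf3 was hardly detected, at 0.453, 0.0696, 0.0154 and 0 FPKM in sHA-X, against 0, 0 and 0.0617 FPKM in PBS. That is 28 reads in sHA-X replicate 1 and 4 or fewer in each other library.

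The 10 genes fell into patterns over the 7 libraries. PBS replicate 3 was the lowest PBS library for 9 genes, Csf3r being the exception, and sHA-X replicate 2 was the highest of all libraries for 8, the exceptions being Ly6g and Csf3r. Within sHA-X, replicates 2 and 4 were both above replicates 1 and 3 for 8 genes, namely Mpo, Elane, Prtn3, Ltf, Camp, S100a8, S100a9 and Ly6g. Csf3r had the opposite order, with replicates 1 and 3 on top. Marker genes of other kinds shared part of this pattern. All 8 erythroid and all 8 proliferation genes were lowest in PBS replicate 3 among PBS libraries. Within sHA-X they were higher in replicates 1 and 3 than in 2 and 4, the order of Csf3r and the reverse of that of the 8 genes named. Of 8 eosinophil genes, 5 had sHA-X replicates 2 and 4 on top and 2 had replicates 1 and 3 on top. Summed erythroid levels were 8581 to 13273 FPKM in sHA-X and 11352 to 23502 FPKM in PBS, and summed proliferation levels were 524 to 674 FPKM in sHA-X and 346 to 825 FPKM in PBS. Their part in the pattern was not tested. The split of the replicates was described after the values had been seen. The shares of all genes tested with these library orders were not counted. The counts are therefore not shown to be particular to the neutrophil genes.

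**Figure D3:**
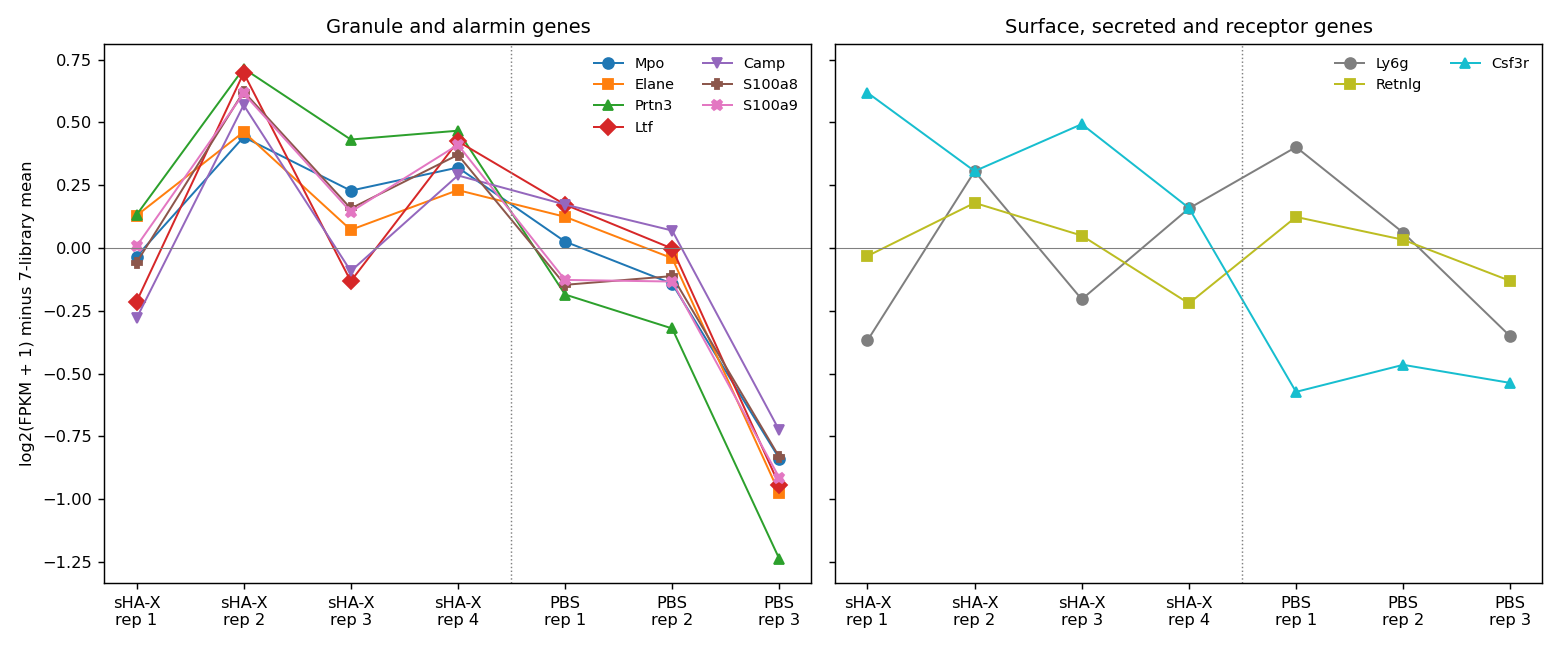
Deviation of each of the 10 neutrophil genes from its mean over the 7 libraries, in log2(FPKM + 1), for sHA-X replicates 1 to 4 and PBS replicates 1 to 3. PBS replicate 3 is the lowest PBS library for 9 of 10 genes, and Csf3r orders the sHA-X libraries the other way round from most of the set.

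Likeness was measured as the root mean square distance between standardized log2(FPKM + 1) values over the 7 libraries, where the 11910 other genes tested had a median of 1.26 from Mpo and 1.24 from S100a8. S100a9 lay 0.0756 from S100a8 and Prtn3 lay 0.187 from Mpo, while Csf3r lay 0.8292 from Mpo and 0.812 from S100a8. Outside the set, the genes nearest to S100a8 were Lcn2 (0.0846), Cd177 (0.150), Alg13 (0.171), Rhou (0.186) and Ifitm6 (0.195). The genes nearest to Mpo were Rhou (0.137), Alg13 (0.201), Lcn2 (0.239), Mapk13 (0.239) and Cd177 (0.242). Lcn2 encodes the iron-siderophore binder lipocalin of the specific granule and Cd177 a neutrophil surface protein. All distances rest on the same 7 libraries and describe those libraries only.

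The related lists were read against 9.30% of all genes called higher. They had been chosen with earlier results of these data known, so a share above that one describes the lists and tests nothing. Of 9 tested azurophil granule and promyelocyte genes, 3 were called higher in sHA-X, 6 missed the threshold and none was called lower, with a median log2 change of 0.32. That median was 0.59 without PBS replicate 1, 0.67 without PBS replicate 3, 0.51 and 0.68 without sHA-X replicates 1 and 3 in turn, and 0.21 without both second replicates. Ctsg, the azurophil protease cathepsin G, averaged 23.8 ± 3.39 FPKM in sHA-X (SD, n = 4) and 10.7 ± 3.38 FPKM in PBS (SD, n = 3), a log2 change of 1.12 (SE 0.22, adjusted p = 0.022). That call needed sHA-X replicates 2, 3 and 4, since leaving out any of them raised the adjusted p to as much as 0.059, and leaving out both second replicates raised it to 0.077. The other two that rose, Cd63 (log2 change 0.74, adjusted p = 0.0026) and Ctsc (0.67, adjusted p = 0.0033), encode a lysosomal membrane protein and the protease that activates granule serine proteases, and macrophages express both.

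Of 21 tested specific and gelatinase granule genes, 5 were called higher in sHA-X, 16 missed the threshold and none was called lower, with a median log2 change of 0.48. Mmp9, gelatinase B, averaged 15.0 ± 0.905 FPKM in sHA-X (SD, n = 4) and 9.11 ± 1.96 FPKM in PBS (SD, n = 3), a log2 change of 0.68 (adjusted p = 0.011). Itgam, an integrin chain of neutrophils, monocytes and macrophages, had a log2 change of 0.39 (adjusted p = 0.010) and Anxa1, annexin A1, one of 0.58 (adjusted p = 0.011). Both missed the threshold without both second replicates (adjusted p 0.070 for Itgam and 0.080 for Anxa1). The cystatin Stfa2l1 (1.23, adjusted p = 0.026) lost its call without sHA-X replicate 1 and without each PBS library in turn (adjusted p at most 0.10) and without both second replicates (0.092), and Mmp25 was called at an adjusted p of 0.047. The Mmp25 call was lost when sHA-X replicate 2 or 4 or any PBS library was left out (adjusted p up to 0.12), without both second replicates (0.19) with no filter on the mean (0.073), under quantile normalization (0.080) or upper quartile scaling (0.052), without robust variance (0.059) and by limma-voom (0.055). The abundant contents were not called: Lcn2 averaged 150.2 ± 41.0 FPKM in sHA-X (SD, n = 4) and 88.6 ± 26.3 FPKM in PBS (SD, n = 3) (adjusted p = 0.14), and Ngp, neutrophilic granule protein, 352 ± 96.4 FPKM in sHA-X (SD, n = 4) and 269 ± 87.7 FPKM in PBS (SD, n = 3) (adjusted p = 0.45). Without PBS replicate 3 their log2 changes were 0.49 for Lcn2, against 0.76 with it, and 0.10 for Ngp, against 0.41. Without sHA-X replicate 2 that of Ngp was 0.26. The count of 5 was 3 without PBS replicate 1 and 1 without both second replicates.

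Of 22 tested genes of mature and activated neutrophils, 14 were higher in sHA-X, none was lower and 8 missed the threshold, with a median log2 change of 0.76. The count was 11 to 14 when single libraries were left out. Cxcr2, the receptor for neutrophil-attracting chemokines, averaged 19.1 ± 2.63 FPKM in sHA-X (SD, n = 4) and 10.8 ± 0.229 FPKM in PBS (SD, n = 3), a log2 change of 0.76 (SE 0.10, adjusted p = 0.0025). Lrg1, a secreted glycoprotein of neutrophil granules and of liver, averaged 50.6 ± 3.92 FPKM in sHA-X (SD, n = 4) and 15.1 ± 1.17 FPKM in PBS (SD, n = 3), a log2 change of 1.68 (SE 0.08, adjusted p = 3.7e-05). Hepatocyte markers summed to 4.91, 19.7, 649.6 and 670.4 FPKM in sHA-X, against 2.19 to 8.56 FPKM in PBS. Lrg1 was at 51.7, 45.7, 55.1 and 50.02 FPKM in those sHA-X libraries. The part of hepatocytes in the Lrg1 change was not tested. Slpi, an inhibitor of elastase and cathepsin G, averaged 299.6 ± 73.3 FPKM in sHA-X (SD, n = 4) and 66.0 ± 13.9 FPKM in PBS (SD, n = 3), a log2 change of 2.15 (adjusted p = 0.0024). Trem1 and Clec4e, activating receptors of neutrophils and monocytes, had log2 changes of 0.99 (adjusted p = 0.0017) and 1.23 (adjusted p = 0.00097). In this list 14 of 22 genes were higher in sHA-X replicates 1 and 3 than in 2 and 4, the order seen for Csf3r. That order was seen for 1 of 21 specific and gelatinase genes and none of 9 azurophil genes. The share of all genes tested with it was not counted.

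**Figure D4:**
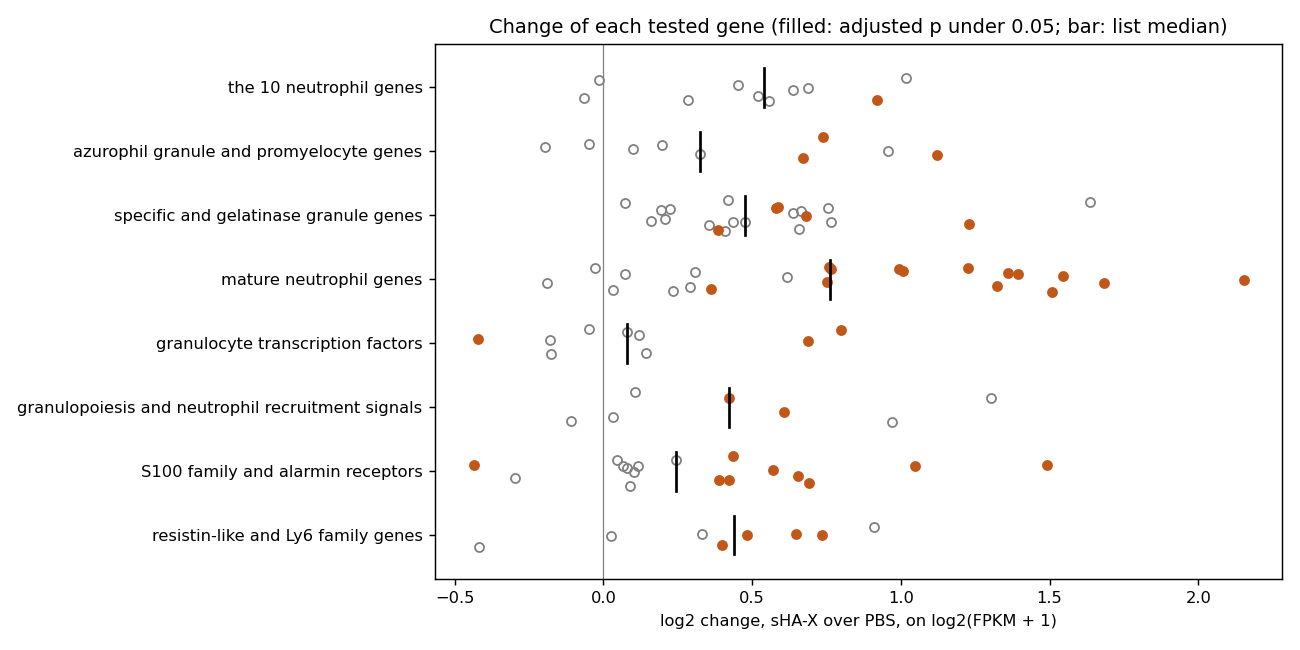
Log2 change, sHA-X minus PBS, of each gene tested in the neutrophil set and in the related lists, with filled points for genes called at an adjusted p under 0.05 and the list median marked. The mature neutrophil list has 14 of 22 genes called and a median of 0.76, the specific and gelatinase list 5 of 21 and a median of 0.48.

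Of 9 granulocyte transcription factors, 2 rose, 1 fell and 6 did not pass, with a median log2 change of 0.08 (-0.01 without PBS replicate 1 or 3). Without both second replicates 1 rose and none fell. Cebpb, which serves emergency granulopoiesis and macrophages, averaged 37.9 ± 3.90 FPKM in sHA-X (SD, n = 4) and 23.1 ± 1.72 FPKM in PBS (SD, n = 3), a log2 change of 0.69 (adjusted p = 0.0026). Cebpd had a log2 change of 0.80 (adjusted p = 0.021), lost without sHA-X replicate 2 or 3 or PBS replicate 1 or 2 (adjusted p up to 0.058) and without both second replicates (0.12). Cebpe, needed for specific granules, averaged 6.42 ± 1.55 FPKM in sHA-X (SD, n = 4) and 5.71 ± 1.40 FPKM in PBS (SD, n = 3) (log2 change 0.14, adjusted p = 0.70). Myb, a factor of progenitors, averaged 15.9 ± 1.22 FPKM in sHA-X (SD, n = 4) and 21.6 ± 2.02 FPKM in PBS (SD, n = 3), a log2 change of -0.42 (adjusted p = 0.013) that missed the threshold without PBS replicate 1 (0.066) and without both second replicates (0.089).

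Of the 14 signals of granulopoiesis and recruitment, 7 could be tested, 2 rose and 5 did not pass, with a median log2 change of 0.42. Csf2rb, the shared chain of the receptors for GM-CSF, IL-3 and IL-5, had a log2 change of 0.42 (adjusted p = 0.0064), and Cxcl12, the chemokine that retains neutrophils in marrow, one of 0.61 (adjusted p = 0.011, and 0.051 without PBS replicate 1). The neutrophil attractant Cxcl2 had 7.63, 0.311, 1.66 and 0.916 FPKM in sHA-X, against 0.287, 0 and 0.0828 FPKM in PBS. All sHA-X libraries lay above PBS, but sHA-X replicate 1 was far above the rest and the test was not passed (log2 change 1.30, adjusted p = 0.25, and 0.75 without that library). Cxcl1, under the filter, had 3.61, 0.353, 1.002 and 0.505 FPKM in sHA-X, against 0.228, 0.0655 and 0.344 FPKM in PBS, with the same library on top.

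Of 17 tested genes of the S100 family and of alarmin receptors, 8 rose, 1 fell and 8 did not pass, with a median log2 change of 0.24. Among those that did not pass, S100a10 was lower in sHA-X (log2 change -0.30, adjusted p = 0.057). All its sHA-X libraries lay below all PBS libraries, as for 11.5% of all genes tested. S100a6 averaged 147 ± 6.96 FPKM in sHA-X (SD, n = 4) and 91.0 ± 7.49 FPKM in PBS (SD, n = 3), a log2 change of 0.69 (adjusted p = 0.00097). S100a16 had a log2 change of 0.43 (adjusted p = 0.0069), and Anxa2, a calcium-dependent membrane binder, one of 0.65 (adjusted p = 0.00097). Il33, an alarmin of stromal cells, had a log2 change of 1.05 (adjusted p = 0.015), lost without PBS replicate 1 or 2 (up to 0.068) and without both second replicates (0.051). Receptors for S100a8 and S100a9 did not share a direction. Tlr4 averaged 11.1 ± 0.385 FPKM in sHA-X (SD, n = 4) and 8.31 ± 1.15 FPKM in PBS (SD, n = 3), a log2 change of 0.39 (adjusted p = 0.021), while Ager averaged 1.17 ± 0.130 FPKM in sHA-X (SD, n = 4) and 1.94 ± 0.342 FPKM in PBS (SD, n = 3), one of -0.44 (adjusted p = 0.026). Tlr4 missed the threshold without sHA-X replicate 1 or 4 or PBS replicate 1 (up to 0.076), and Ager without sHA-X replicate 1 or 3 or PBS replicate 2 or 3 (up to 0.077). Without both second replicates the adjusted p was 0.086 for Tlr4 and 0.11 for Ager. Cd33 (log2 change 0.09, adjusted p = 0.48) and Bsg (0.12, adjusted p = 0.68), further receptors of the pair, did not pass. The count of 8 was 3 without PBS replicate 1, 4 without PBS replicate 2 and 3 without both second replicates.

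Of 8 tested genes of the resistin-like and Ly6 families, which hold the relatives of Retnlg and Ly6g, 4 rose and 4 did not pass, with a median log2 change of 0.44. Among those that did not pass, Ly6d went the other way (log2 change -0.42, adjusted p = 0.056). All its sHA-X libraries lay below all PBS libraries, as for 11.5% of all genes tested. Ly6a, an antigen of progenitors, lymphocytes and vessels, averaged 346 ± 10.4 FPKM in sHA-X (SD, n = 4) and 220.5 ± 15.3 FPKM in PBS (SD, n = 3), a log2 change of 0.65 (adjusted p = 0.00094). Ly6c1 (0.40, adjusted p = 0.024), Ly6c2 (0.48, adjusted p = 0.034) and Retnla (0.73, adjusted p = 0.029) each lost the call without PBS replicate 1 (adjusted p 0.10, 0.12 and 0.11 in that order) and without several other libraries, and the count was 1 to 3 over single libraries left out. Without both second replicates the count was 2, with adjusted p of 0.12 for Ly6c1 and 0.17 for Retnla. Ly6a and Ly6c2 are not confined to neutrophils, and Ly6c2 marks monocytes.

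Markers of other cells that share these genes differed between the groups as well. All 7 macrophage genes rose, with a summed level of 1719 to 1917 FPKM in sHA-X and 862 to 1086 FPKM in PBS. Of 9 monocyte genes 4 rose and 1 fell, with sums of 460.3 to 537 FPKM in sHA-X and 382 to 458 FPKM in PBS. Of 8 eosinophil genes 4 fell and none rose, with sums of 214 to 311 FPKM in sHA-X and 346 to 512 FPKM in PBS. Of 6 mast cell and basophil genes 4 rose, while Mcpt8 (log2 change -0.08, adjusted p = 0.82) and Prss34 (-0.35, adjusted p = 0.27) did not pass. Of 7 progenitor genes 1 rose and 1 fell. Every macrophage marker averaged at least 46.4 FPKM in both groups. Their part in the changes of Csf3r and of the mature neutrophil list was not tested.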

How the data were processed

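The authors deposited 1 table of 22173 genes by 7 libraries. Its header names no unit; the values were read as FPKM computed by the authors. Dividing by a step found for each gene gave whole reads (to 0.02 read) for each of the 16889 genes detected in 2 libraries or more. Build mm10 and the tools HISAT2, HTSeq, fastp, R 3.2.0 and DESeq2 are listed, with no roles, in the submitters' processing notes. TRIzol was used for total RNA, per the labels' protocols.

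From the deposited FPKM, log2(FPKM + 1) was tested with limma 3.58.1 (R 4.3.3, trend, robust), sHA-X against PBS, with Benjamini-Hochberg adjustment over 11920 genes with a mean of at least 1 FPKM (10253 left out) and a threshold of 0.05. The script was tested on simulated data. Genes and lists were chosen with earlier results of these data known. The text names all 10 neutrophil genes, the 4 or fewer genes of smallest p per list and 10 further genes. It also names the 5 genes nearest in pattern to Mpo and to S100a8. Mmp25, Cd33, Bsg, S100a10, Ly6d, Mcpt8 and Prss34 were named after their values were seen. The alternatives were another pseudocount, filters, scalings, a replicate block, limma-voom on recovered reads and leaving out libraries. Counting error covers reads only.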

Additional observations from a re-analysis of the deposited data

Results flagged for a closer look

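Csf3, which encodes G-CSF, the ligand of the Csf3r product, had 0.453 FPKM in sHA-X replicate 1, against 0.0696, 0.0154 and 0 FPKM in the other sHA-X libraries and 0, 0 and 0.0617 FPKM in PBS. The gap between the highest sHA-X library and the next was 0.846 of the range of the group, above Dixon's 95% critical value for 4 samples. It rested on 28 reads. Of 43 genes examined in this way 1 stood out, and chance alone flags about 1 in 20 groups.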

How the results depend on the processing

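The Csf3r call held under all 16 alternatives. Of all genes, 1108 were higher and 600 lower in sHA-X. Quantile normalization gave 758 and 938, so the share of calls that were higher was 44.7%, against 64.9% in the main result, and 4 lower genes in the related lists, against 2. The lists together gave 38 higher and 2 lower of 93. Without robust variance 2 neutrophil genes were higher, Prtn3 being added. Leaving out both second replicates gave 492 higher and 329 lower genes in all, and 23 and 0 in the lists. Leaving out 1 library gave 494 to 1262 higher and 232 to 641 lower genes, 1 to 2 higher neutrophil genes, and 23 to 37 higher and 1 to 2 lower genes in the lists. Without PBS replicate 1 there were 494 and 232. With 1 library left out, the log2 change of Cebpe lay between -0.029 (reversed, without PBS replicate 3) and 0.28, that of Ly6g between -0.26 and 0.12 and that of Retnlg between -0.084 and 0.057. The cause of these shifts was not tested. Same-numbered libraries correlated at 0.15, -0.21 and -0.29 in their deviations from the group means. With 4 and 3 libraries, deviations within a group depend on each other, so these values cannot show whether the numbers pair the libraries. A replicate block over replicates 1 to 3 gave 286 higher and 74 lower genes, 20 and 0 in the lists, and a log2 change of 0.057 for Retnlg. Count models in edgeR and DESeq2 were not run, because the unit is FPKM; limma-voom on recovered reads, chosen after seeing the data, gave 1066 and 669 in all, 37 and 3 in the lists. Depth limits genes with few reads, among them Csf3, Cxcl1 and Cxcl2. The libraries number 4 and 3, so a change of moderate size can miss the threshold.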
